A study of Homo sapiens with 11 samples.

Results

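The expression of 9 genes of the RAS, RAL and RAP branch of small GTPases was examined after miR-365a-3p was introduced into cancer cells: RRAS2, RRAS, NRAS, HRAS, MRAS, RALA, RALB, RAP1A and RAP1B. They are 9 of the 31325 genes on the arrays, and all 9 were found there under these symbols. RRAS2 was chosen by the treatment differences of these same arrays, in which it was among the most raised genes of both cell lines, and its relatives were listed to stand beside it. Its treatment differences, and how they compare with those of the relatives, are therefore given as a description without a test. No other measure of RRAS2 was used to choose it, so its level in control cells of the 2 lines was tested.

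The study asked how microRNAs alter signaling networks of cancer cells and measured mRNA in the breast cancer line MDA-MB-231 and the ovarian cancer line SKOV3. Both are human lines established in culture, and each was transfected with miR-365a-3p or with a control miRNA. The 4 groups were MDA-MB-231 with control miRNA (n = 3 arrays), MDA-MB-231 with miR-365a-3p (n = 3), SKOV3 with control miRNA (n = 2) and SKOV3 with miR-365a-3p (n = 3). The treatment lasted 48 h by the sample labels but 24 h by the series' own description, and the study's methods call the ovarian line SKOV3.ip1. The identity of the control miRNA and the dose used for the arrays are not given in the sources used here, and nothing there says that the arrays of a group came from separate cultures, so p-values measure only the spread between these arrays.

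RAS family proteins are molecular switches that are active when bound to GTP and inactive when bound to GDP. Exchange factors load them with GTP, GTPase-activating proteins (GAPs) return them to the inactive state, and a lipid tail holds them on membranes, where the active form binds effectors. HRAS and NRAS signal through RAF kinases and the ERK cascade and through PI3-kinase. RRAS2 (TC21), RRAS and MRAS form the R-RAS group, which is known for PI3-kinase signaling and the control of integrin adhesion. RALA and RALB act downstream of RAS through their own exchange factors and direct vesicle delivery through the exocyst, and RAP1A and RAP1B are known for integrin activation and for cell junctions.

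The sequence that distinguishes the treated groups is that of the mature miRNA, shown because its seed is the part that pairs with target mRNAs. It lies on chromosome 16 at chr16:14309340-14309361 (plus strand, GRCh38.p14, RefSeq), and bases 2 to 8, the seed, are in capitals.
hsa-miR-365a-3p: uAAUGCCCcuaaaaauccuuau
The mature miR-365b-3p of chr17:31575478-31575499 (plus strand) has the same letters, and among 2370 mature miRNA names of the RefSeq table these 2 alone carry the seed AAUGCCC. Whether a member's transcript holds a site for this seed was not analysed here.

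RefSeq promoter windows (300 bases around a transcript start, GRCh38.p14) were found for 8 of the 9 genes, and where a gene has several starts the window with the most CpG was taken. The windows of RRAS2, NRAS and RAP1B are shown because these 3 genes were called higher in both cell lines on the normalized values, as described below. Capitals mark the GC box motif GGGCGG or, on the other strand, CCGCCC. The RRAS2 window is chr11:14358418-14358717 (minus strand, 1 of 4 windows of the gene), the NRAS window chr1:114716722-114717021 (minus strand) and the RAP1B window chr12:68610649-68610948 (plus strand).
RRAS2: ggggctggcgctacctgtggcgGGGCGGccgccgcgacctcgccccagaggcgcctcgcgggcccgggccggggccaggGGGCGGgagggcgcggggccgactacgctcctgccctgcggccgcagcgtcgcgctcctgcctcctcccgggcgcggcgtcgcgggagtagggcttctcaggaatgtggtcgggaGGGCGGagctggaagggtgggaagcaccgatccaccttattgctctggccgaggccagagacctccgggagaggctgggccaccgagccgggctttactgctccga
NRAS: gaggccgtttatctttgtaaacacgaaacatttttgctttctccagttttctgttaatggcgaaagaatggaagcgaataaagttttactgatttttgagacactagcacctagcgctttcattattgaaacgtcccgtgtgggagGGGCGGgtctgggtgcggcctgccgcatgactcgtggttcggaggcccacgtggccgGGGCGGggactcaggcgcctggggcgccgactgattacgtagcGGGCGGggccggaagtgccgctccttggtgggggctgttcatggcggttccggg
RAP1B: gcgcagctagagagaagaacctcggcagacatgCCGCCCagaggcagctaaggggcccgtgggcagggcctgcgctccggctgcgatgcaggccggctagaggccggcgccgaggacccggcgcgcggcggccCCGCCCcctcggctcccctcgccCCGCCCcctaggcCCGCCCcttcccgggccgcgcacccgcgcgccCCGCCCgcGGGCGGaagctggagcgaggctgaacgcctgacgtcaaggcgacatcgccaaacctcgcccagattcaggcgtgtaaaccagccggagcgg
The motif occurred 3 times in the RRAS2 window, 3 times in the NRAS window and 6 times in the RAP1B window. It was present in 7 of the 8 member windows and in 45.0% of 35116 windows of all genes. The windows of all genes were not picked by CpG, so these figures are not like for like. The same holds for the GC content and the TATA box below. The 5 remaining windows with a sequence include those of HRAS and MRAS, whose mRNA was not called changed in either line on the normalized values and whose windows hold 5 copies each, and that of RAP1A, which holds none and has a GC content of 43.7%. GC content was 75.7% in both the RRAS2 and RAP1B windows and 57.3% in that of NRAS, against a median of 58.7% over all windows. A search for the TATA box motif TATAAA on both strands found none in the 8 windows, while 11.5% of all windows hold one. These counts are descriptions of letters and not of factor binding.

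Values are given on a log2 scale after quantile normalization of the deposited values, unless they are called deposited. A gene was called changed where limma's Benjamini-Hochberg adjusted p over all 31325 genes was under 0.05. The deposited columns did not share a distribution: the 75th percentile of an array was 7.90 ± 0.037 (SD, n = 3) in MDA-MB-231 control arrays and 7.62 ± 0.051 (n = 3) with miR-365a-3p, and 8.01 ± 0.043 (n = 2) and 7.74 ± 0.065 (n = 3) in SKOV3. It was thus lower on the miR-365a-3p arrays of both lines, and differences of mid-range genes move down when the deposited values are used as they are. Both scales are given for the 9 genes wherever a direction or a call depends on this choice and for the gene lists by their counts, and the part that this shift plays in any change was not tested. Because each gene is read by its own probes, levels are compared between groups and never between genes. A bulk array cannot tell fewer expressing cells from less RNA per cell.

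The labelled cell types were checked against marker genes. ERBB2, the receptor amplified in SKOV3, stood at 10.9 in SKOV3 control arrays and 7.61 in MDA-MB-231 control arrays, PAX8 and MUC1 were also higher in SKOV3 and WFDC2 was at the floor of the scale in both, while VIM and CAV1 were high in both lines. Of 10 genes not expected in either line, 8 lay between 7.25 and 7.39 in the control arrays, and the exceptions were ESR1 at 8.83 and COL1A1 at 8.51 in SKOV3 controls. The median of an array was 7.35 to 7.41 on the deposited scale. No arrays were identical.

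RRAS2, whose protein drives PI3-kinase signaling and can transform cells in culture, was higher with miR-365a-3p in both lines by nearly the same amount. Its levels in MDA-MB-231 were 8.14, 8.04 and 8.12 in the control arrays and 9.80, 9.83 and 9.78 with miR-365a-3p. In SKOV3 they were 9.22 and 9.29 in the control arrays and 11.10, 10.98 and 10.92 with miR-365a-3p. The 4 groups did not overlap, and they lay in the order MDA-MB-231 control, SKOV3 control, MDA-MB-231 with miR-365a-3p, SKOV3 with miR-365a-3p. The difference was 1.70 on the log2 scale in MDA-MB-231 (SE 0.048, 3.25-fold) and 1.74 in SKOV3 (SE 0.053, 3.34-fold). These were the differences with rank 7 and rank 3 from the highest among all 31325 genes, which is the property it was selected on. On the deposited values they were 1.44 and 1.65. The fold sizes assume that the deposited scale is a plain log2, which the sources used here do not state.

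**Figure D1:**
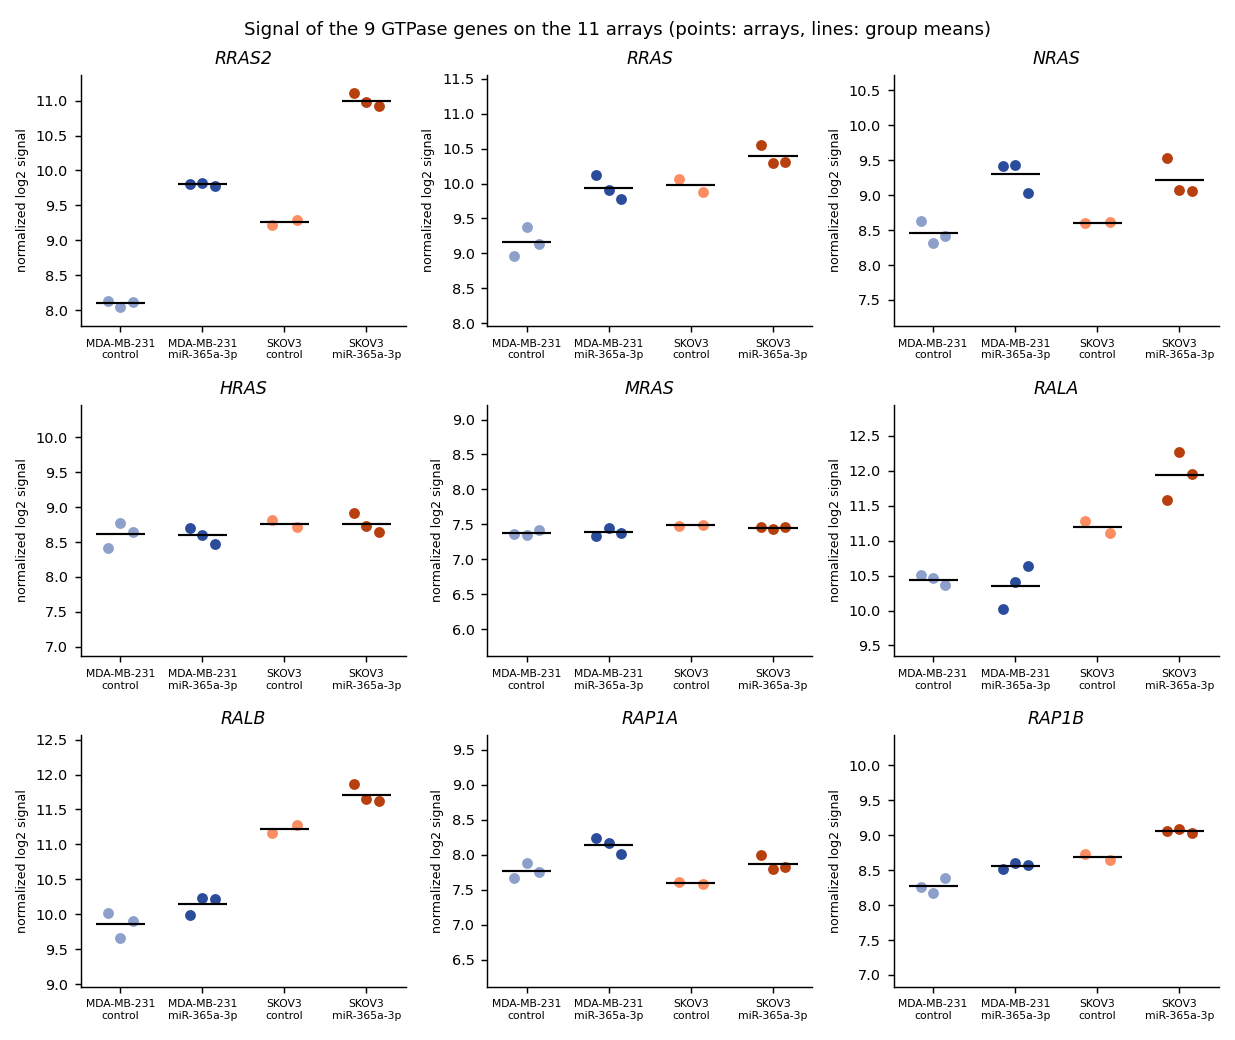
Level of each of the 9 genes on every array (vertical axis, quantile-normalized log2 value, a panel for each gene) in the 4 groups (horizontal axis). Points are arrays (n = 3, or 2 for SKOV3 control), the line is the group mean, and every panel spans the same range of log2 units. The RRAS2 groups do not overlap, while the control and treated HRAS groups overlap in each line, with all HRAS arrays between 8.41 and 8.92.

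With the control miRNA RRAS2 was lower in MDA-MB-231 than in SKOV3. The control groups differed by -1.16 on the log2 scale (MDA-MB-231 minus SKOV3, SE 0.053, limma adjusted p = 2.3e-06), a 2.23-fold difference, and the call was kept under all 19 alternatives that could be run for it. On the deposited values the difference was also -1.16.

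RRAS, the namesake of the R-RAS group and an activator of integrin adhesion, rose in MDA-MB-231. Its levels there were 8.96, 9.38 and 9.13 in the control arrays and 10.12, 9.91 and 9.77 with miR-365a-3p, a difference of 0.78 (SE 0.128, limma adjusted p = 0.00211). In SKOV3 the levels were 10.06 and 9.89 in the control arrays and 10.56, 10.30 and 10.31 with miR-365a-3p. All treated arrays of SKOV3 again lay above the controls, but the difference of 0.42 (SE 0.143) did not pass the threshold (limma adjusted p = 0.0957). The deposited differences were 0.58 (called) and 0.36 (not called). RRAS levels of MDA-MB-231 with miR-365a-3p and of SKOV3 control overlapped, and the other neighbors in the order of levels did not.

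NRAS, a classical RAS that feeds the RAF and ERK cascade, was called higher in both lines. In MDA-MB-231 its levels were 8.63, 8.32 and 8.42 in the control arrays and 9.42, 9.43 and 9.04 with miR-365a-3p, a difference of 0.84 (SE 0.153, limma adjusted p = 0.0036). In SKOV3 they were 8.60 and 8.61 in the control arrays and 9.53, 9.07 and 9.06 with miR-365a-3p, a difference of 0.61 (SE 0.171, limma adjusted p = 0.0453). The treated and control arrays did not overlap in either line, whereas the control groups of the 2 lines overlapped, as did the treated groups. The SKOV3 call was close to the threshold and was lost in 13 of 21 alternatives, among them the deposited values (difference 0.40, limma adjusted p = 0.152) and 7 of the 11 fits that left out an array. Without replicate 1 or replicate 2 of the SKOV3 controls the limma adjusted p was 0.201 or 0.207, and without SKOV3 miR-365a-3p replicate 1 it was 0.084 with a difference of 0.45. The MDA-MB-231 call was kept in all 21 alternatives.

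HRAS, the other classical RAS of the list, did not differ on the normalized values. Its levels were 8.41, 8.77 and 8.64 in MDA-MB-231 control arrays and 8.70, 8.61 and 8.48 with miR-365a-3p, and 8.81 and 8.71 against 8.92, 8.73 and 8.64 in SKOV3. The differences were -0.01 (95% interval -0.25 to 0.23) in MDA-MB-231 and 0.00 (-0.27 to 0.27) in SKOV3. On the deposited values HRAS was instead called lower in MDA-MB-231, by -0.37 (limma adjusted p = 0.0335), and stood at -0.24 in SKOV3 (limma adjusted p = 0.24). MRAS, which activates RAF together with SHOC2, lay between 7.33 and 7.49 on all arrays, at percentiles 52.0 to 64.3 of all genes by group mean and so near the floor of the scale. Its differences were 0.01 in MDA-MB-231 and -0.04 in SKOV3, neither called, and on the deposited values -0.03 and -0.15, of which the second was called lower (limma adjusted p = 0.0157).

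The RAL genes, whose proteins regulate the exocyst, differed between the lines in their values. RALA levels in MDA-MB-231 were 10.50, 10.46 and 10.36 in the control arrays and 10.02, 10.41 and 10.63 with miR-365a-3p, and the 2 groups overlapped. In SKOV3 they were 11.29 and 11.11 in the control arrays and 11.58, 12.27 and 11.95 with miR-365a-3p, so that every treated array lay above the controls. The RALA difference was -0.09 in MDA-MB-231 (95% interval -0.51 to 0.34) and 0.74 in SKOV3 (SE 0.21), where it missed the threshold (limma adjusted p = 0.0501). It was called in 9 of 21 alternatives in SKOV3, including the deposited values (0.80, limma adjusted p = 0.0333) and the fit without SKOV3 miR-365a-3p replicate 1 (0.91, limma adjusted p = 0.017). The MDA-MB-231 difference minus the SKOV3 difference was -0.82 (95% interval -1.47 to -0.18), and it was not called after adjustment over all genes (limma adjusted p = 0.235).

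RALB, the other RAL gene, stood at 10.02, 9.67 and 9.90 in MDA-MB-231 control arrays and at 9.99, 10.24 and 10.22 with miR-365a-3p. The groups overlapped by 1 array, and the difference of 0.29 (SE 0.108) was not called (limma adjusted p = 0.0926). In SKOV3 the RALB levels were 11.16 and 11.28 in the control arrays and 11.87, 11.64 and 11.62 with miR-365a-3p. They did not overlap, and RALB was called higher there by 0.49 (SE 0.121, limma adjusted p = 0.0277; 0.55 on the deposited values). The call was lost in 8 of 21 alternatives, among them the fits without SKOV3 control replicate 1 (0.44, limma adjusted p = 0.186), SKOV3 control replicate 2 (0.55, limma adjusted p = 0.105) and SKOV3 miR-365a-3p replicate 1 (0.41, limma adjusted p = 0.0705).

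RAP1B, which activates integrins, was called higher in both lines on the normalized values, but not on the deposited ones. Its levels were 8.26, 8.18 and 8.38 in MDA-MB-231 control arrays and 8.52, 8.60 and 8.57 with miR-365a-3p, a difference of 0.29 (SE 0.051, limma adjusted p = 0.003). In SKOV3 they were 8.73 and 8.64 against 9.05, 9.09 and 9.03, a difference of 0.37 (SE 0.058, limma adjusted p = 0.00317). The treated arrays lay above the controls in both lines on this scale. On the deposited values the MDA-MB-231 difference had the opposite sign, at -0.09 (limma adjusted p = 0.592), and the SKOV3 difference was 0.14 (limma adjusted p = 0.45), so the rise of RAP1B depends on the scaling. RAP1A, its near-identical partner, stood at 7.67, 7.88 and 7.75 in MDA-MB-231 control arrays and at 8.24, 8.16 and 8.01 with miR-365a-3p, a difference of 0.37 that was called (SE 0.078, limma adjusted p = 0.0073) and was 0.03 on the deposited values (limma adjusted p = 0.83). In SKOV3 RAP1A stood at 7.61 and 7.59 against 7.80, 7.83 and 7.995 in the treated arrays, a difference of 0.28 that was not called (limma adjusted p = 0.0702; 0.06 on the deposited values).

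**Figure D2:**
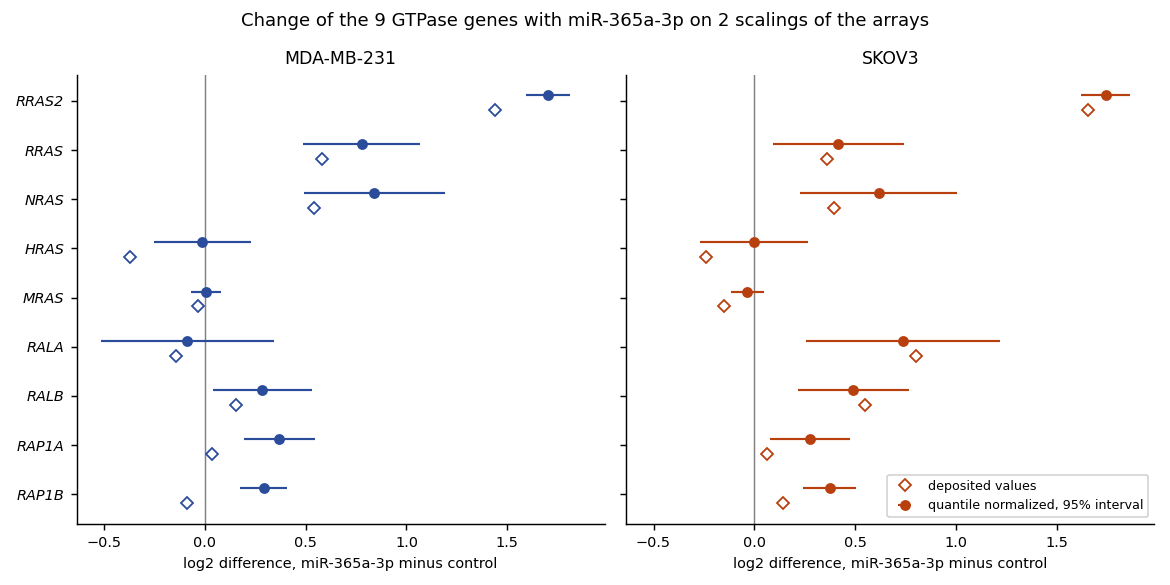
Difference in log2 value, miR-365a-3p minus control miRNA, for the 9 genes in both lines, on the quantile-normalized and the deposited values. Filled points with bars are the normalized estimates with their 95% intervals, and open diamonds are the deposited estimates. RRAS2 lies at 1.70 and 1.74 on the normalized values and at 1.44 and 1.65 on the deposited ones, and RAP1B, at 0.29 and 0.37 on the normalized values, is at -0.09 and 0.14 on the deposited ones.

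By the normalized values, 5 of the 9 genes were called higher and 0 lower in MDA-MB-231, where 14.4% of all genes were called higher and 11.7% lower. In SKOV3 4 of 9 were called higher and 0 lower, against 7.25% and 7.11% of all genes. The 3 called higher in both lines were RRAS2, NRAS and RAP1B, against 5.76% of all genes, and 0 were called lower in both, against 5.39%. HRAS, MRAS and RALA were called in neither line. RRAS2 stands in these counts because it was chosen for its rise, and nothing is read from its share. The median difference of the 9 genes was 0.29 in MDA-MB-231 and 0.42 in SKOV3, and 0.29 and 0.39 without RRAS2, beside a median of 0.01 over all genes in each line. With the deposited values 3 genes were called higher (RRAS2, RRAS, NRAS) and HRAS lower in MDA-MB-231, beside 2275 and 5620 of all 31325 genes. Called higher in SKOV3 were 3 (RRAS2, RALA, RALB), and MRAS was called lower, beside 1201 and 4401 of all genes. None of the relatives of RRAS2 was called higher in both lines on that scale, and nothing is read from the calls of RRAS2 itself. The 2 treatment comparisons used separate control arrays, but 1 estimate of the spread of each gene. For the difference between the lines in the treatment change, 0 of 9 genes were called in either direction by limma, against 1.24% of all genes called higher in MDA-MB-231 and 1.3% called lower. RRAS2 was chosen as a rise shared by the lines, so nothing is read from its place in this count either. At an unadjusted p under 0.05 (RALA alone among the members, whose 95% interval leaves out 0), 4012 of all genes differed.

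In control cells, 5 of the 9 genes were lower in MDA-MB-231 than in SKOV3 and 0 were higher, against 8.34% and 7.76% of all genes called lower and higher. Besides RRAS2 these were RALB, at -1.36 (SE 0.121, limma adjusted p = 9.44e-05), RRAS at -0.81 (SE 0.143, limma adjusted p = 0.00421), RALA at -0.75 (SE 0.21, limma adjusted p = 0.0412) and RAP1B at -0.41 (SE 0.058, limma adjusted p = 0.00121). The control arrays of the lines did not overlap for any of these 5 genes. They did not overlap for MRAS and RAP1A either, which were not called on the normalized values. The share of all genes without overlap is not given here, so nothing is read from it. The RALA call was lost in 8 of 19 alternatives, among them the fits without SKOV3 control replicate 1 (limma adjusted p = 0.253) and replicate 2 (0.128), and the RRAS call was lost without SKOV3 control replicate 1 (-0.74, limma adjusted p = 0.0509). NRAS differed by -0.15 (95% interval -0.54 to 0.24), HRAS by -0.16 (-0.42 to 0.11) and RAP1A by 0.17 (-0.03 to 0.37), none of them called, and the MRAS difference of -0.11 was called lower on the deposited values alone of these 2 scales (-0.19, limma adjusted p = 0.005). All 9 differences kept their sign on the deposited values.

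The order of the 4 groups differed among the genes on the normalized values. RAP1B had MDA-MB-231 control, MDA-MB-231 with miR-365a-3p, SKOV3 control and SKOV3 with miR-365a-3p in rising order with no overlap, an order that the deposited values do not keep. RALA and RALB had both MDA-MB-231 groups, which overlapped, below SKOV3 control and SKOV3 with miR-365a-3p, which did not. For RAP1A the SKOV3 control arrays were the lowest and the MDA-MB-231 arrays with miR-365a-3p the highest on the normalized values, with the other groups overlapping between them.

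The genes whose pattern over the 11 arrays was most like that of RRAS2 were found by Pearson's r among the 15661 genes above the median mean. They were LOC389293 (r = 0.993), ISCA1L (0.991), LOC648758 (0.990), SLC25A14 (0.988) and LOC100133211 (0.988). LOC648758 had group means of 7.34 to 7.51, near the floor of the scale, and differed by 0.09 and 0.11 with miR-365a-3p. Of the relatives, RAP1B (0.935) and RRAS (0.926) had the highest r, NRAS (0.792), RALB (0.785) and RALA (0.702) came next, and MRAS (0.409), HRAS (0.345) and RAP1A (0.337) had the lowest. By r on the normalized values, RAP1B had rank 309 and RRAS rank 391 among the 15661 genes. The arrays of a group share treatment and line, so these values describe 4 group levels more than 11 separate points.

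Other small GTPases were set beside the 9 genes, from lists written with earlier results known. Counts of a list are read beside the shares of all genes, which were 14.4% called higher and 11.7% lower in MDA-MB-231, 7.25% and 7.11% in SKOV3, and 5.76% and 5.39% in both lines. On the deposited values 2275 of all 31325 genes were called higher and 5620 lower in MDA-MB-231, and 1201 and 4401 in SKOV3. The share called in both lines on that scale is not given here. Of 26 further genes of the RAS branch, 3 were called higher and 3 lower in MDA-MB-231, and 3 higher and 2 lower in SKOV3, which is near those shares. NKIRAS1 and RIT1 were higher in both lines, NKIRAS1 (an inhibitor of NF-kappaB) by 0.81 and 0.55 and RIT1 by 0.49 and 0.43, and NKIRAS2 was lower by -0.17 and -0.27. The median of the 26 was 0.00 and 0.02 in the 2 lines. On the deposited values 0 of the 26 were called higher in both lines and NKIRAS2 alone was called lower. In the ARF family of vesicle traffic GTPases, 9 of 20 genes were called higher and 5 lower in MDA-MB-231, and 5 higher and 0 lower in SKOV3, all 5 of them higher in both lines, with SAR1B, a COPII coat GTPase, at 0.92 and 0.80, and 4 of the 5 were called higher in both lines on the deposited values.

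**Figure D3:**
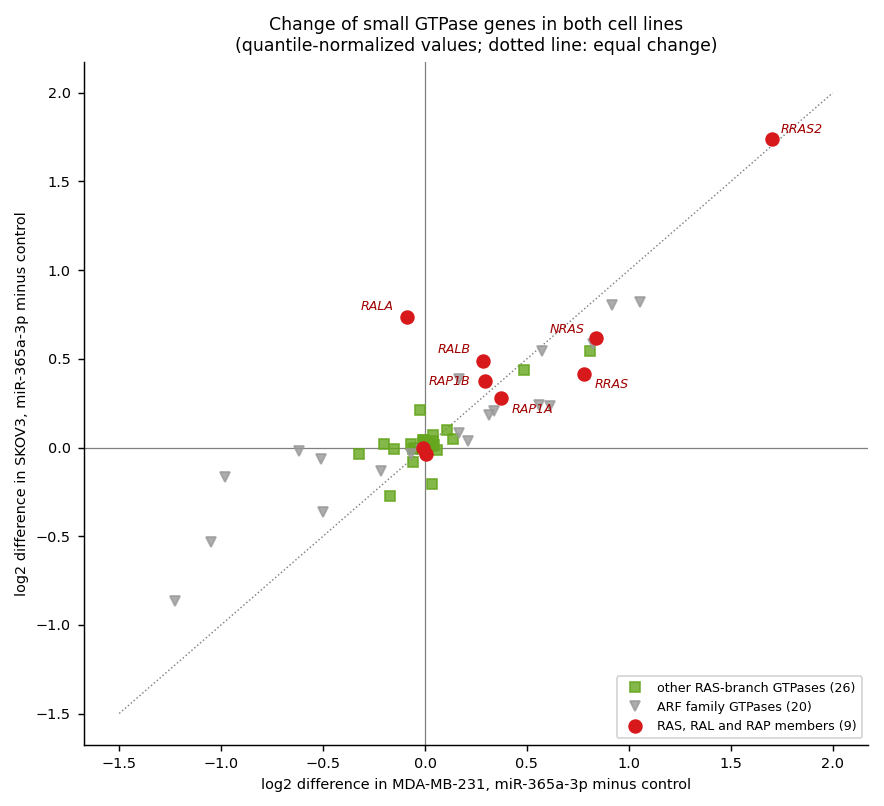
Difference in log2 value, miR-365a-3p minus control miRNA, in MDA-MB-231 (horizontal axis) and SKOV3 (vertical axis) for the 9 members, 26 other RAS-branch and 20 ARF family genes on the quantile-normalized values. Points are genes, the dotted line marks equal differences, and RRAS2 is at the upper right at 1.70 and 1.74.

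The regulators that load and unload these GTPases were counted on both scales, since their calls depend on it. Apart from the ERK output genes below, the medians of the regulator and effector lists lay between -0.22 and 0.19 in MDA-MB-231 and between -0.20 and 0.09 in SKOV3, beside 0.01 over all genes. These medians on the deposited values lay between -0.43 and 0.00 and between -0.33 and -0.04, beside -0.01 and -0.02 over all genes, so the upper end in SKOV3 turns sign. Of 8 RAS exchange factors, SOS1, which loads RAS downstream of receptor tyrosine kinases, was called lower in both lines by -0.11 and -0.10, at group means of 7.29 to 7.43 near the floor of the scale. It was the only one called in both lines on the normalized values, and on the deposited values SOS2 was called lower in both as well, at -0.28 and -0.17. Of 7 RAL exchange factors 0 were called in both lines on the normalized values, but 3 (RALGDS, RALGPS1 and RGL2) were called lower in both on the deposited ones. Of 8 RAP exchange factors, RAPGEF2 differed by -1.05 in MDA-MB-231 and -1.10 in SKOV3 and RAPGEF1 by -0.32 and -0.27, all called lower, and none was called higher. Of 11 RAS GAPs and GAP-related genes, IQGAP1, a scaffold with a GAP-related domain, was lower by -1.67 and -1.10 and RASAL2 by -0.15 and -0.09. RASAL3 was called higher by 0.08 in both lines but was at -0.03 and -0.01 on the deposited values. Group means were 7.31 to 7.46 for RASAL2 and 7.43 to 7.52 for RASAL3, also near the floor of the scale. Of 9 RAL and RAP GAPs, RALGAPB and RALGAPA1, subunits of the RAL GAP complex, were lower, by -0.35 and -0.29 and by -0.22 and -0.21. Group means were 7.40 to 7.82 for RALGAPB, 7.55 to 7.78 for RALGAPA1 and 7.39 to 7.74 for RAPGEF1, also toward the floor. Of 9 plexins, semaphorin receptors with a GAP domain for R-RAS and RAP proteins, 4 were called lower in MDA-MB-231, 6 in SKOV3 and 3 in both (PLXNB2, PLXNA1 and PLXNA3), and 0 were called higher. PLXNB2 differed by -0.38 in MDA-MB-231 and -1.02 in SKOV3, and PLXNA3 stood at 7.29 with miR-365a-3p in both lines, near the floor. The genes named here as lower in both lines on the normalized values were also called lower in both on the deposited values. More of all genes were called lower on the deposited values as well, 5620 against 3663 in MDA-MB-231 and 4401 against 2228 in SKOV3. On the deposited values 4 of the RAP exchange factors and 3 of the RAS GAPs were lower in both lines, against 2 and 2 on the normalized values. For the RAL and RAP GAPs these counts were 4 against 2, and for the plexins 4 against 3. The share of all genes called lower in both lines on the deposited values is not given here. Nothing is read from the deposited counts of these lists for that reason.

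The effectors are the proteins that the active GTPases bind. Of 19 RAS effectors and scaffolds, 2 were called higher and 6 lower in MDA-MB-231, and 0 higher and 3 lower in SKOV3, beside the shares of all genes given above. ARAF, a RAF kinase, was lower by -1.07 and -1.11, and SNX27 and PLCE1, a RAS-regulated phospholipase, were also lower in both lines. PLCE1 had group means of 7.40 to 7.70, toward the floor of the scale. Of 6 RAL effectors 2 were called lower in MDA-MB-231 and 1 in SKOV3, with 0 in both on the normalized values. On the deposited values 3 (EXOC2, EXOC8 and FLNA) were called lower in both, a count without a share of all genes beside it. Of 8 RAP effectors, TLN1 (talin, which links integrins to actin) was lower by -1.57 and -1.75 and ARAP3 by -0.95 and -0.69. Of 11 genes for the lipid tail and membrane delivery of RAS proteins, FNTA, the shared subunit of farnesyl and geranylgeranyl transferase, was higher by 1.01 and 0.66, and kept both calls on the deposited values. GOLGA7, the partner of the RAS palmitoyl transferase, was called higher by 0.44 and 0.61 and PGGT1B by 0.22 and 0.25. The deposited GOLGA7 difference was called in SKOV3 alone, and those of PGGT1B were -0.06 and 0.06, neither called. ZDHHC9, the palmitoyl transferase itself, was lower by -0.48 and -0.47. The medians of these 11 genes were 0.19 and 0.09 on the normalized values and had the opposite sign, -0.13 and -0.07, on the deposited ones.

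ERK pathway output genes, transcribed when the cascade below RAS is active, were called lower in 13 of 15 cases in MDA-MB-231 and in 4 of 15 in SKOV3, with medians of -0.86 and -0.15, beside 11.7% and 7.11% of all genes called lower. IER3 was the only one called higher, in SKOV3. The 4 lower in both lines were SPRED1 (-1.83 and -0.78), SPRED2 (-1.28 and -1.06), PHLDA1 (-1.04 and -0.60) and EGR1 (-0.32 and -0.88), of which the SPRED proteins themselves restrain RAS signaling. The difference between the lines in the treatment change was called for 8 of the 15 genes, all with the more negative change in MDA-MB-231. For this difference 1.24% of all genes were called higher and 1.3% lower. In control cells each of these 8 genes had a lower level in SKOV3, at 7.39 to 8.99, than in MDA-MB-231, at 7.80 to 10.5, and 5 of them stood at 7.39 to 7.72 in SKOV3, near the floor of the scale, with little room to fall. The difference between the lines in the change and that in the control level cannot be told apart for them. On the deposited values 7 of the 15 were called lower in both lines and the medians were -1.07 and -0.41. Of all 31325 genes, 5620 were called lower in MDA-MB-231 and 4401 in SKOV3 on that scale. The share of all genes lower in both lines is not given for it, so nothing is read from the 7 genes. The mRNA of these genes was measured once, at a single time, and no activity of any GTPase was measured on these arrays.

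**Figure D4:**
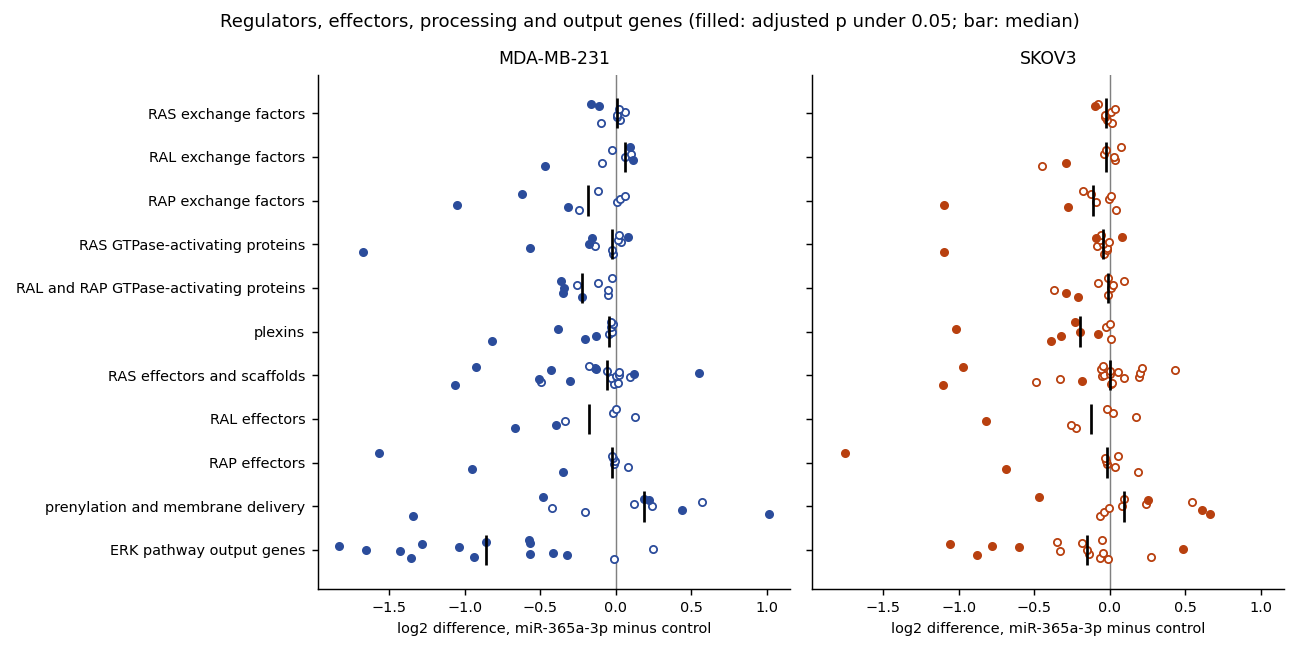
Difference in log2 value, miR-365a-3p minus control miRNA, for the genes of each regulator, effector and output list in MDA-MB-231 and SKOV3 on the quantile-normalized values. Points are genes, filled where called at a limma adjusted p under 0.05, and the bar of each list is its median. The medians of the ERK output genes are -0.86 and -0.15, and the other lists have medians between -0.22 and 0.19, some of which turn sign on the deposited values.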

How the data were processed

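Expression was measured on 11 Illumina BeadChip arrays in 4 groups, which were taken from the cell line and treatment labels. The authors amplified RNA to biotin-labelled cRNA, quantile normalized the data with lumi (version not given in the sources used here) and deposited 1 value for each of 31325 gene symbols and array, which is taken here as a log2 value from its range. Whether the transformation was log2 or variance stabilizing, whether background was subtracted and how probes of a gene were combined are not given in the sources used here. Signal over background and bead numbers are unknown, so the number of arrays limits the precision.

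The deposited columns did not share a distribution. As the design set out for this case, they were quantile normalized with limma 3.58.1 in R 4.3.3. A model with 4 group means was fitted to all 11 arrays (lmFit, eBayes), with contrasts for miR-365a-3p minus control in each line, their difference and the difference of the controls. The Benjamini-Hochberg adjustment covered all 31325 genes, and an adjusted p under 0.05 was called. The fit was tested on simulated data. All 9 genes entered it, and no filter on low values was applied.

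The 9 genes, the gene lists and the tests were chosen with earlier results of these data known. The 9 genes are named in full, and of each list at most 4 genes called with the same sign in both lines, by the mean size of their differences. IER3, SOS2, RALGDS, RALGPS1, RGL2, EXOC2, EXOC8 and FLNA were named after their values were seen. A further gene list of the design, and 1 gene that the rule names, are not reported here. List members are counted beside the share of all genes called, without a set test. RAP1GAP2 was matched through its older symbol GARNL4. Promoter and miRNA sequences were taken from RefSeq tables of GRCh38.p14. The alternatives were the deposited values, centring on the median, cyclic loess, each line alone, a replicate block, genes above the median mean, weights for arrays, a robust eBayes with a trend on intensity, a stricter adjusted p (0.01), a minimum log2 difference of 0.5 in size, and fits that leave out 1 array each.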

Additional observations from a re-analysis of the deposited data

Results flagged for a closer look

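None of the 9 members was called for a difference between the lines in the treatment change by the interaction term. RRAS2 was chosen as a rise shared by the lines, so nothing is read from its place in this count. Of all genes 1.24% were called higher in MDA-MB-231 and 1.3% lower, so the count does not set the members apart. RALA stood at -0.82 with a 95% interval of -1.47 to -0.18, but was not called after adjustment (limma adjusted p = 0.235). Among the genes set beside the members, 3 that are named were called. SPRED1, a RAS inhibitor, had a change in MDA-MB-231 minus that in SKOV3 of -1.05 (limma adjusted p = 0.03) and fell in both lines, from 10.5 to 8.69 in MDA-MB-231 and from 8.99 to 8.20 in SKOV3. PLXNA1 differed by -0.43 (limma adjusted p = 0.0291), with the larger fall in MDA-MB-231, and PLXNB2 by 0.64 (limma adjusted p = 0.0138), with the larger fall in SKOV3. Both plexins fell to near the floor of the scale from unequal control levels, PLXNA1 from 8.09 to 7.28 in MDA-MB-231 and from 7.73 to 7.34 in SKOV3, and PLXNB2 from 7.91 to 7.52 and from 8.71 to 7.69. The size of these falls and the control level cannot be told apart.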

How the results depend on the processing

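With 10 alternatives of scaling, fit, filter or threshold and with 11 arrays left out in turn, 729 values of single members were computed. Of these, 664 kept their side of the threshold, 38 lost the call, 25 gained one and 2 reversed, losing the call with the opposite sign. Sign changes between values that were both not called are counted among the 664. HRAS in MDA-MB-231, for example, was at -0.01 in the main fit and at 0.07 without control replicate 2. RRAS and NRAS in MDA-MB-231 and the control difference of RRAS2 and RALB kept their calls in all alternatives run. The reversed values were those of RAP1B in MDA-MB-231, at -0.086 with the deposited values and -0.053 with centring on the median.

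Members called higher in MDA-MB-231 numbered 5, and 3 with the deposited values, with centring on the median and with an absolute log2 difference of at least 0.5. Members called lower there numbered 0, and 1 (HRAS) with the deposited values and with centring. Members called higher in SKOV3 numbered 4, and 2 with each line alone, with the replicate block, with an adjusted p under 0.01 and with the absolute difference of at least 0.5, 7 with array weights, and 2 to 5 with an array left out, the lowest without either SKOV3 control array. Members called lower in SKOV3 numbered 0, and 1 (MRAS) with the deposited values and with centring. Members lower in MDA-MB-231 controls than in SKOV3 controls numbered 5, and 3 to 6 with an array left out, the lowest without SKOV3 control replicate 1. The cause of these moves was not tested, except that a stricter threshold calls fewer genes by its construction.

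Of all genes called in MDA-MB-231, 55.2% were higher, against 28.8% with the deposited values and 40.9% with centring. In SKOV3 these shares were 50.5%, 21.4% and 32.3%, and for the control lines 48.2%, 36.1% and 40.1%. Genes called higher numbered 4511 in MDA-MB-231 (2275 to 5046 over the alternatives), 2270 in SKOV3 (614 to 3987), 388 for the difference of the changes (45 to 922) and 2430 for the control lines (1335 to 3547). Genes called lower numbered 3663 (1960 to 5620), 2228 (1155 to 4401), 408 (78 to 965) and 2613 (1400 to 3846) in the same order.

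Deviations from the group means over 6853 genes were correlated between arrays with the same replicate number of the labels. The values were -0.12, 0.04 and 0.23 in MDA-MB-231 and 0.04 and -0.07 in SKOV3. With so few arrays in a group they cannot show whether the arrays were paired, and the main model had no replicate term. With the replicate block NRAS and RALB lost their calls in SKOV3, with limma adjusted p of 0.0775 and 0.146, and the 5 members called in MDA-MB-231 were unchanged in number.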
